A study of Homo sapiens and Mus musculus with 10 samples.

Results

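The genes described here are named as encoding proteins of the mitochondrial ribosome. They were chosen by symbol, as every listed gene named MRPL or MRPS followed by a number and at most 1 letter from A to C. The rule found 78 of 27800 gene symbols in the human table and 78 of 24493 in the mouse table, with the same symbols in both. By name, 49 belong to the large subunit (MRPL) and 29 to the small subunit (MRPS). All 78 reached the minimum of a mean of 1 TPM (a transcript's share of a library, scaled for its length) in both lines, so no member was left out of a test.

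RNA sequencing was used to ask what inhibition of KAT6A does to transcription in acute myeloid leukaemia models. KAT6A is a histone acetyltransferase, and the small molecule WM-1119 inhibits it. MOLM-13, a human acute myeloid leukaemia line, was given DMSO (3 libraries) or 4 µM WM-1119 (3 libraries) for 4 days. ER-Hoxa9, a mouse line kept in stem cell factor and β-estradiol in all its groups, was given DMSO (2 libraries) or 2 µM WM-1119 (2 libraries) for 4 days. Each group is a single cell line, the doses and species differ, and the lines stand in separately normalized tables, so no test was made between the lines.

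Mitochondrial ribosomes translate the few proteins that mitochondrial DNA encodes, which are subunits of the respiratory chain and of ATP synthase. Their RNA comes from the mitochondrial genome, but every protein of the particle is encoded in the nucleus, made in the cytosol and imported. The large subunit forms peptide bonds and is anchored at the inner membrane, and the small subunit binds the messenger RNA. Names do not follow structure in every case: the proteins of MRPS30 and MRPS18A sit in the large subunit, and the protein of MRPS36 is known as a part of the 2-oxoglutarate dehydrogenase complex. Counts, sums and medians by subunit follow the names, so these 3 genes are counted there as small subunit genes. Myeloid leukaemia cells are known for their reliance on mitochondrial translation.

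The promoters show what the rule, which read only names, did not use. RefSeq promoter windows on GRCh38.p14, each from 250 bases before to 50 bases after a gene's start, were found for 69 of the 78 human members, as 85 windows. Both strands were searched for short sequences named for factors linked to mitochondrial or growth genes. The ETS family core CCGGAAG, the letters that GABP is known to read, was in 38.8% of the members' windows, in 18.1% of the 12964 windows of genes tested in MOLM-13 and in 10.3% of all 35116 windows. The YY1 core ATGGCGG was in 29.4% of the members' windows, 9.89% of those of tested genes and 5.55% of all. The NRF1 consensus was in 2.35%, 2.71% and 1.48%, and the E-box CACGTG was in 10.6%, 9.75% and 7.26%. The SP1 box GGGCGG was in 60%, 66.3% and 45.0%, and it can share end letters with the YY1 core and the E-box. The letters ATGGCGG after a start can also hold the start codon of the protein. A match describes letters, not a bound site.

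The stretches below run from 60 bases before to 24 bases from the start onwards, 5′ to 3′ on the gene's strand, with ETS and YY1 matches in capitals. MRPS30 is shown because it was lower with WM-1119 in both lines, MRPL46 because its start faces that of MRPS11, MRPS18A and MRPL58 because they hold both sequences, and MRPL33 because it was the most abundant member. MRPL43 holds an ETS match close to the start, MRPL19 a YY1 match before it on the other strand, and MRPL12 neither sequence in the printed stretch.
MRPS30, chr5:44808887-44808970, plus strand: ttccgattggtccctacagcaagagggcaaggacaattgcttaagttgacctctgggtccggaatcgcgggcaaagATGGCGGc
MRPL46, chr15:88467365-88467448, minus strand: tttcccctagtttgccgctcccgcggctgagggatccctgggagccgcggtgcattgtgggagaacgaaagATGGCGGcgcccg
MRPS18A, chr6:43687768-43687851, minus strand: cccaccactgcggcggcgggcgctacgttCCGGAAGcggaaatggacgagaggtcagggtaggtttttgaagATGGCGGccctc
MRPL33, chr2:27771659-27771742, plus strand: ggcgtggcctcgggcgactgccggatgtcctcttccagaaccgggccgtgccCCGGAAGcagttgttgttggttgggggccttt
MRPL58, chr17:75012610-75012693, plus strand: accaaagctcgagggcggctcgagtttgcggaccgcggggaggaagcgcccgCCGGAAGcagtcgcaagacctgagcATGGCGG
MRPL43, chr10:100987474-100987557, minus strand: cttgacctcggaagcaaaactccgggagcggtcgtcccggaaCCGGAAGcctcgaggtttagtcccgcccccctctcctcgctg
MRPL12, chr17:81703307-81703390, plus strand: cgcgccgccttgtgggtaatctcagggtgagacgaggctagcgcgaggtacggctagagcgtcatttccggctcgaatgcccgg
MRPL19, chr2:75646723-75646806, plus strand: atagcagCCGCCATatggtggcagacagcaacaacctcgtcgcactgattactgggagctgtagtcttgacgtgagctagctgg

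The matches were not spread evenly over the windows, in members or in other genes. Of the 26 YY1 matches in members, 20 (76.9%) began after the start, at bases 10 to 39, as in MRPS30, MRPL46 and MRPS18A, beside 56.1% in genes tested. Of 45 ETS matches, 26 (57.8%) lay within the 60 bases before the start, beside 41.9% in genes tested. No test was made of these shares. Large and small subunit genes both held them: ETS in 18 of 42 large and 12 of 27 small subunit genes with a window, and YY1 in 14 of 42 and 10 of 27.

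The members lie on 21 chromosomes in GENCODE release 29 (GRCh38), and 17 of them (21.8%) start head to head with another protein-coding gene within 1000 bases. The same holds for 10.5% of the 10757 protein-coding genes tested in MOLM-13 and for 7.36% of all protein-coding genes. MRPL46 (chr15:88459476-88467419, minus strand) and MRPS11 (chr15:88467453-88480773, plus strand) face each other across 34 bases, so a large and a small subunit gene share a start region. MRPL47 starts 36 bases from NDUFB5 and MRPL36 starts 34 bases from NDUFS6, both subunits of respiratory complex I. The models of 38 members overlap another protein-coding gene, and it is not given whether reads were assigned by strand, so values of such members may include reads of a neighbour.

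The lines were checked against marker genes. In MOLM-13, 9 of 11 myeloid and progenitor markers had a mean of at least 1 TPM, all but CD34 and KIT, and in ER-Hoxa9 11 of 11 did. Of markers of other cell types, fibroblast genes were below 1 TPM in both lines, and 1 of 4 T cell genes and 1 of 3 B cell genes reached it in each. In MOLM-13, 2 of 4 erythroid genes (HBA1, HBB) reached it, and the erythroid sum was 0 to 148 TPM with DMSO and 0.087 to 209.9 TPM with WM-1119. There 2 of 3 epithelial genes (KRT8, KRT18) and 0 of 3 megakaryocyte genes also did. In ER-Hoxa9, 3 of 3 megakaryocyte genes reached it, with sums of 22.5 to 40.1 TPM with DMSO and 47.9 to 55.7 TPM with WM-1119. The B cell sum there was 1.43 to 3.80 and 8.14 to 12.4 TPM, so both sums lay higher with WM-1119. The myeloid and progenitor sum of ER-Hoxa9 also lay higher, at 2197 to 3699 TPM with DMSO and 4348 to 4461 TPM with WM-1119. Its T cell sum lay lower, at 7.50 to 8.07 and 6.27 to 6.32 TPM. Among all genes tested in that line, 40.3% lay wholly higher with WM-1119 and 7.94% wholly lower. There 2 of 5 erythroid and 0 of 3 epithelial genes reached 1 TPM. The part of these markers in the members' values was not tested. The depth of a library cannot be read from TPM, and a library's TPM are shares, so abundant entries weigh on all others. Cytosolic ribosomal protein genes took 25.7% to 39.8% of a MOLM-13 library and 27.7% to 34.0% of an ER-Hoxa9 library, and microRNA entries took 13.2% to 22.0% and 7.53% to 10.96%. In bulk samples, fewer cells of a type and less RNA per cell cannot be told apart.

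Every member was expressed, over a wide range. Mean DMSO levels ran from 10.2 to 445 TPM in MOLM-13 (median 54.3) and from 8.08 to 773 TPM in ER-Hoxa9 (median 63.4). MRPL33, a small protein of the large subunit, was the most abundant member in both lines. It had 453, 385 and 497 TPM in the DMSO libraries and 523, 445 and 641 TPM in the WM-1119 libraries of MOLM-13, which overlapped. In ER-Hoxa9, Mrpl33 had 762 and 783 TPM with DMSO and 718 and 785 TPM with WM-1119, again overlapping. Next in MOLM-13 were the large subunit genes MRPL51 at 177 ± 25.3 TPM and MRPL23 at 177 ± 13.3 TPM (mean ± SD, n = 3 DMSO libraries), which lay within each other's spread. Next in ER-Hoxa9 were Mrpl52 at 291 ± 33.6 TPM and Mrps21 at 256 ± 3.88 TPM (n = 2), whose libraries did not overlap. The lowest members were MRPL19, MRPL22 and MRPS11 in MOLM-13 (10.2, 12.9 and 13.9 TPM) and Mrpl17, Mrpl35 and Mrps25 in ER-Hoxa9 (8.08, 8.50 and 9.22 TPM).

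**Figure D1:**
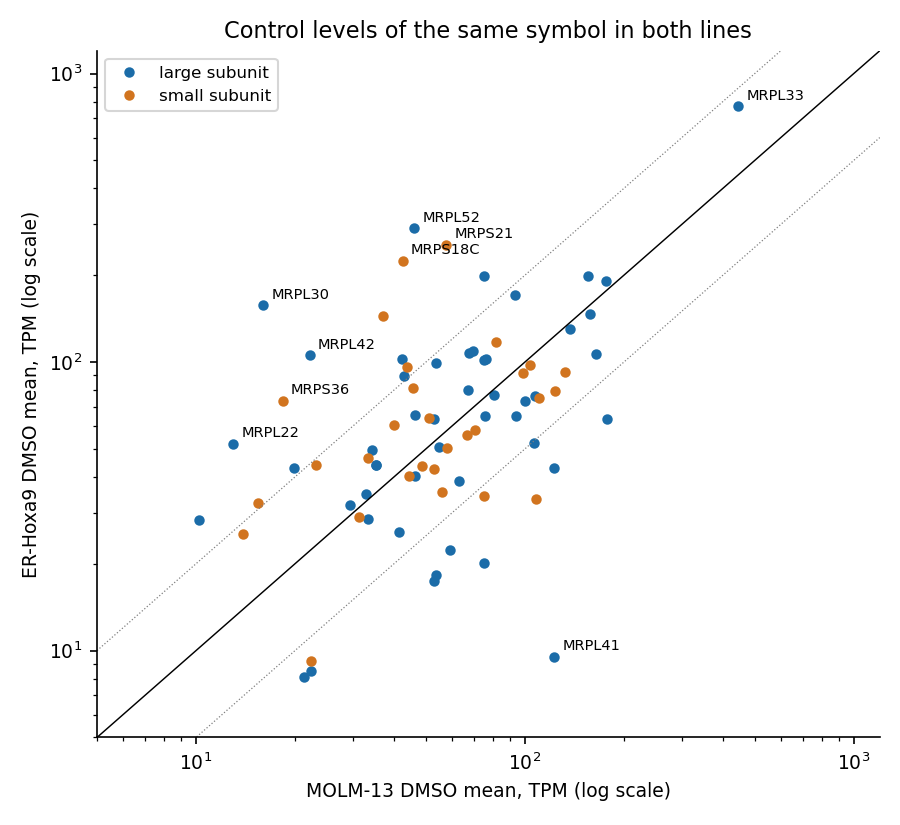
Mean DMSO level of each of the 78 symbols in MOLM-13 (x axis) and ER-Hoxa9 (y axis), in TPM on log scales. The solid line marks equal levels and the pale dotted lines a 2-fold difference, between which 50 symbols lie. Named are MRPL33 and the 8 symbols that differ more than 4-fold, of which MRPL41 alone lies below the solid line.

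The order of the members differed between the human and the mouse line. Spearman's rho between the DMSO means was 0.41 over the 78 symbols, which share libraries and are not independent, and 50 symbols lay within 2-fold of each other. Gene models and tables differ between the species, so these ratios set 2 separately normalized tables side by side. MRPL41, a large subunit protein, had 142, 78.8 and 147 TPM in the DMSO libraries of MOLM-13 and 8.85 and 10.2 TPM in those of ER-Hoxa9, a level 12.9-fold higher in the human line. MRPL30, which belongs to the same subunit, had 18.8, 14.5 and 14.7 TPM in MOLM-13 and 158 and 158 TPM in ER-Hoxa9, 9.85-fold higher in the mouse line. Mouse levels were also more than 4-fold higher for MRPL52 (6.33-fold), MRPS18C (5.29-fold), MRPL42 (4.76-fold), MRPS21 (4.43-fold), MRPL22 (4.03-fold) and MRPS36, the last at 4.00-fold when rounded.

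Sums over each subunit gave overlapping libraries in MOLM-13 and higher values with WM-1119 in ER-Hoxa9. The large subunit genes of MOLM-13 summed to 3805 ± 701 TPM with DMSO and 3935 ± 572 TPM with WM-1119, and the small subunit genes to 1706 ± 412 and 1706 ± 310 TPM (mean ± SD, n = 3). The ratio of the sums was 2.25 ± 0.16 and 2.32 ± 0.17. In ER-Hoxa9 the large subunit summed to 4523 ± 18.1 TPM with DMSO and 4723 ± 133 TPM with WM-1119, and the small subunit to 2134 ± 4.10 and 2353 ± 159 TPM (n = 2). Both WM-1119 libraries lay above both DMSO libraries, with 4629 and 4818 against 4510.1 and 4536 TPM for the large subunit and 2240.03 and 2465 against 2131 and 2137 TPM for the small. The difference of the sums turned, by the median of ratios, to -270.5 TPM for the large and -11.4 TPM for the small subunit. There the ratio was 2.12 ± 0.004 with DMSO and 2.01 ± 0.08 with WM-1119: it was 2.12 in both DMSO libraries and 1.95 and 2.07 in the WM-1119 libraries, which lay below. No test was made of these sums.

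**Figure D2:**
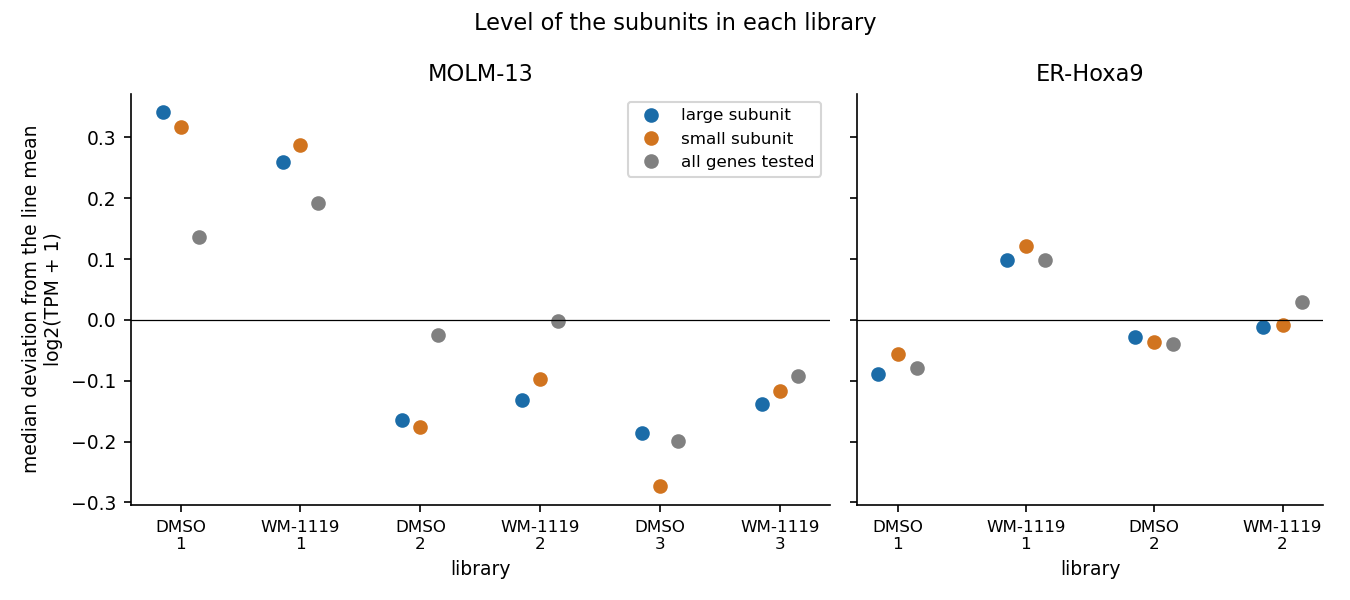
Median, over the large subunit genes, the small subunit genes and all genes tested, of each library's deviation from the gene's mean in its line, in log2(TPM + 1). The points of the subunits lie close together in most libraries, and both replicate 1 libraries of MOLM-13 lie above the other 4.

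In MOLM-13 the members' levels went with the replicate number. All members together summed to 6790, 4863 and 4880.1 TPM in DMSO libraries 1, 2 and 3, and to 6612, 4936 and 5376 TPM in WM-1119 libraries 1, 2 and 3. The libraries numbered 1 were thus the highest in both treatments. Of the 78 members, 47 had their highest value in DMSO library 1 and 23 in WM-1119 library 1, and 0 had their lowest value in either. No such count was made over all genes in these 2 libraries. The members' median deviation from the line mean was 0.34 and 0.28 log2 units in those 2 libraries and -0.21 to -0.12 in the other 4, where all genes tested had 0.14 and 0.19, and -0.20 to -0.00. Large and small subunit genes shared this pattern, with 0.34 and 0.32 in DMSO library 1 and 0.26 and 0.29 in WM-1119 library 1. The labels do not say what the replicate numbers share.

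Against that spread, WM-1119 changed no member past the test in MOLM-13. A fold change here is the WM-1119 mean of log2(TPM + 1) minus the DMSO mean, with the SE of limma, fitted over all genes tested in a line, and a Benjamini-Hochberg adjusted p under 0.05 was called. Of 49 large subunit genes 0 were called lower and 0 higher, and of 29 small subunit genes 0 and 0. Among the 12436 genes tested 0.00804% were called lower (1 gene) and 0% higher, so the members' count was read against almost no calls. At an unadjusted p under 0.05 there were again 0 members in either direction, against 0.965% of genes lower and 2.08% higher. The median fold change was 0.01 for the large subunit, 0.03 for the small subunit and 0.05 for all genes tested. Negative values were found for 22 large and 12 small subunit genes and positive values for 27 and 17. Rescaled by the median of ratios, 52 members were negative and 26 positive in place of 34 and 44. Over all genes 6532 were then negative and 5909 positive, in place of 4788 and 7648. The medians were -0.06, -0.04 and -0.01 for the large subunit, the small subunit and all genes. At an unadjusted p under 0.05 that scaling had 3 members lower, against 1.64% of genes, and 0 higher, against 2.2%. The members' fold changes spanned -0.32 to 0.27, and their 95% intervals -0.90 to 1.05. The interval stayed within 2-fold either way for 76 of 78 members, and within 1.5-fold for 20.

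**Figure D3:**
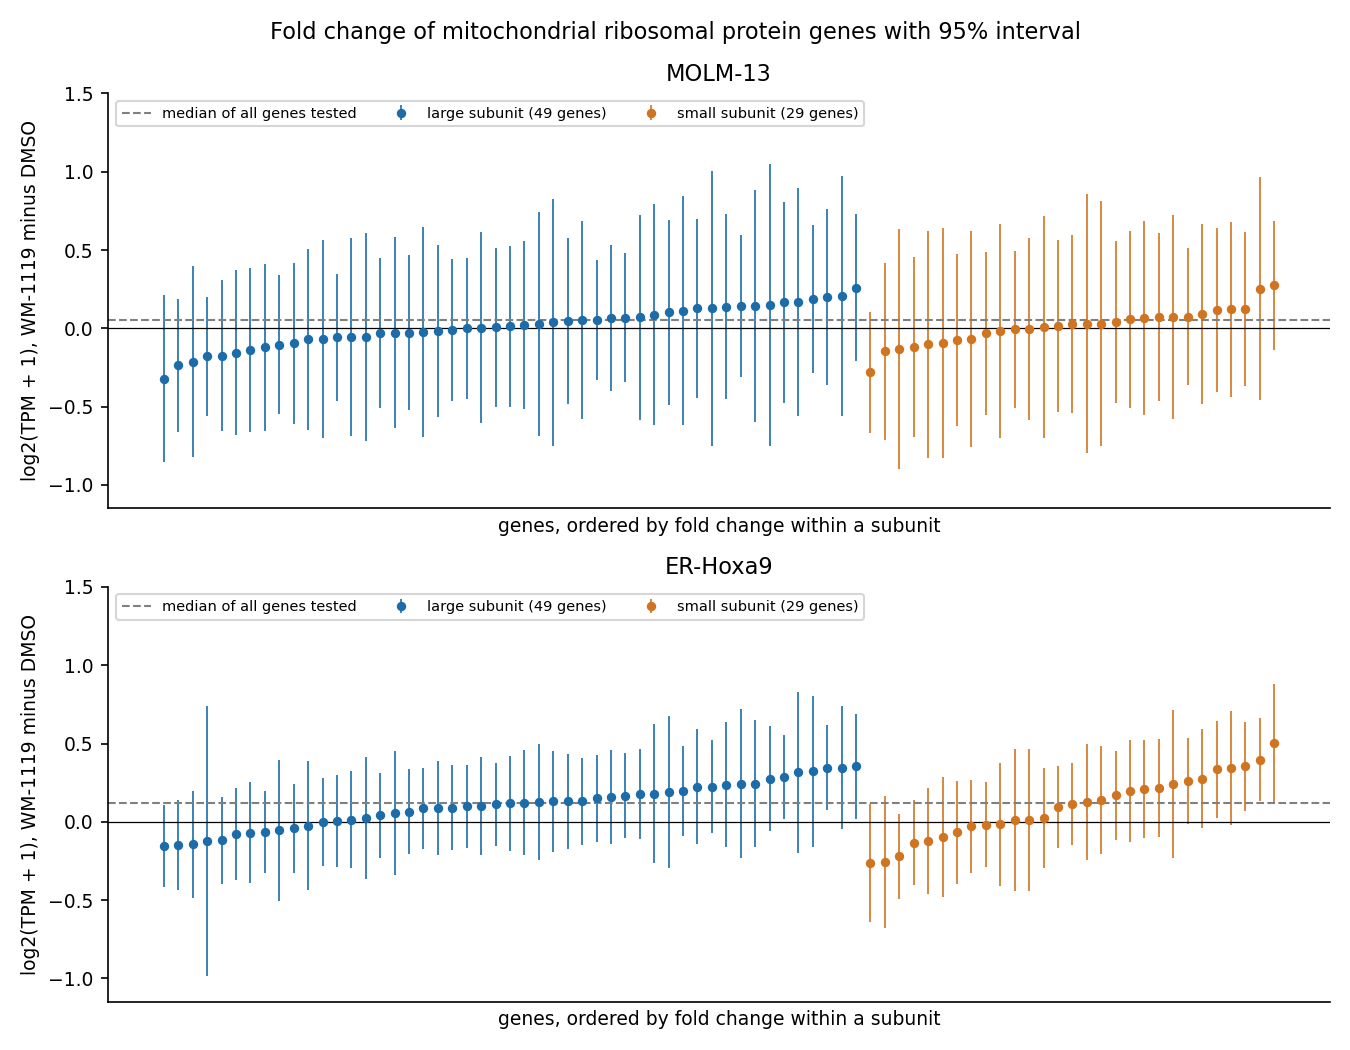
Fold change of each member with its limma 95% interval, in log2(TPM + 1), WM-1119 minus DMSO, for MOLM-13 (top) and ER-Hoxa9 (bottom), ordered within the large (blue) and small (orange) subunit. The dashed line is the median of all genes tested, at 0.05 and 0.12, and the points of both subunits lie on both sides of it.

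Since same-numbered libraries of MOLM-13 deviated together, the comparison was repeated within pairs. With the replicate number as a block, the members' median SE was 0.08 in place of 0.24, and the interval of all 78 members stayed within 1.5-fold. The adjusted test still called 0 members, with a smallest adjusted p of 0.173 (limma). At an unadjusted p under 0.05 it had 4 members lower, against 4.91% of genes tested, and 6 higher, against 13.2%. The pairs themselves did not move alike: the members' median difference was -0.07 in pair 1, 0.02 in pair 2 and 0.09 in pair 3, beside 0.03, 0.02 and 0.10 over all genes, and 52, 37 and 23 of the 78 members were lower in them. All 3 pairs were lower for 12 members, against 14.4% of genes, and higher for 13, against 28.6%.

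In ER-Hoxa9 the adjusted test also called 0 large and 0 small subunit genes in either direction. Of 11362 genes tested, 0.0176% were called lower (2 genes) and 0.0176% higher (2 genes). At an unadjusted p under 0.05, 7 members were higher (3 large, 4 small subunit), against 11.6% of genes tested, and 0 were lower, against 1.13%. The median fold change was 0.12 for the large subunit, 0.12 for the small subunit and 0.12 for all genes, the same to 2 decimals. By the median of ratios, which centres all genes near 0 by construction, all genes had a median of -0.01 and both subunits -0.03. With it 47 members were negative and 31 positive in place of 22 and 56. Over all genes 5975 were then negative and 5374 positive, in place of 3193 and 8169. At an unadjusted p under 0.05 that scaling had 5 members lower, against 3.99% of genes, and 2 higher, against 6.13%. With the replicate number as a block there were 1 lower, against 2.4%, and 10 higher, against 15.5%. The interval stayed within 2-fold for all 78 members and within 1.5-fold for 56.

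The WM-1119 libraries of ER-Hoxa9 lay wholly above the DMSO libraries for 33 members (20 large, 13 small subunit), against 40.3% of genes tested, and wholly below for 7 (4 large, 3 small), against 7.94%. The 7 were Mrpl24, Mrpl32, Mrpl36, Mrpl50, Mrps6, Mrps27 and Mrps30. WM-1119 library 1 held the highest value of 48 members and DMSO library 1 the lowest value of 38. No such count was made over all genes. The median deviation from the line mean in these libraries was 0.11 and -0.08 over the members, beside 0.10 and -0.08 over all genes tested. The pair numbered 1 had a median difference of 0.20 over the members and the pair numbered 2 a median of 0.02, beside 0.17 and 0.07 over all genes.

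**Figure D4:**
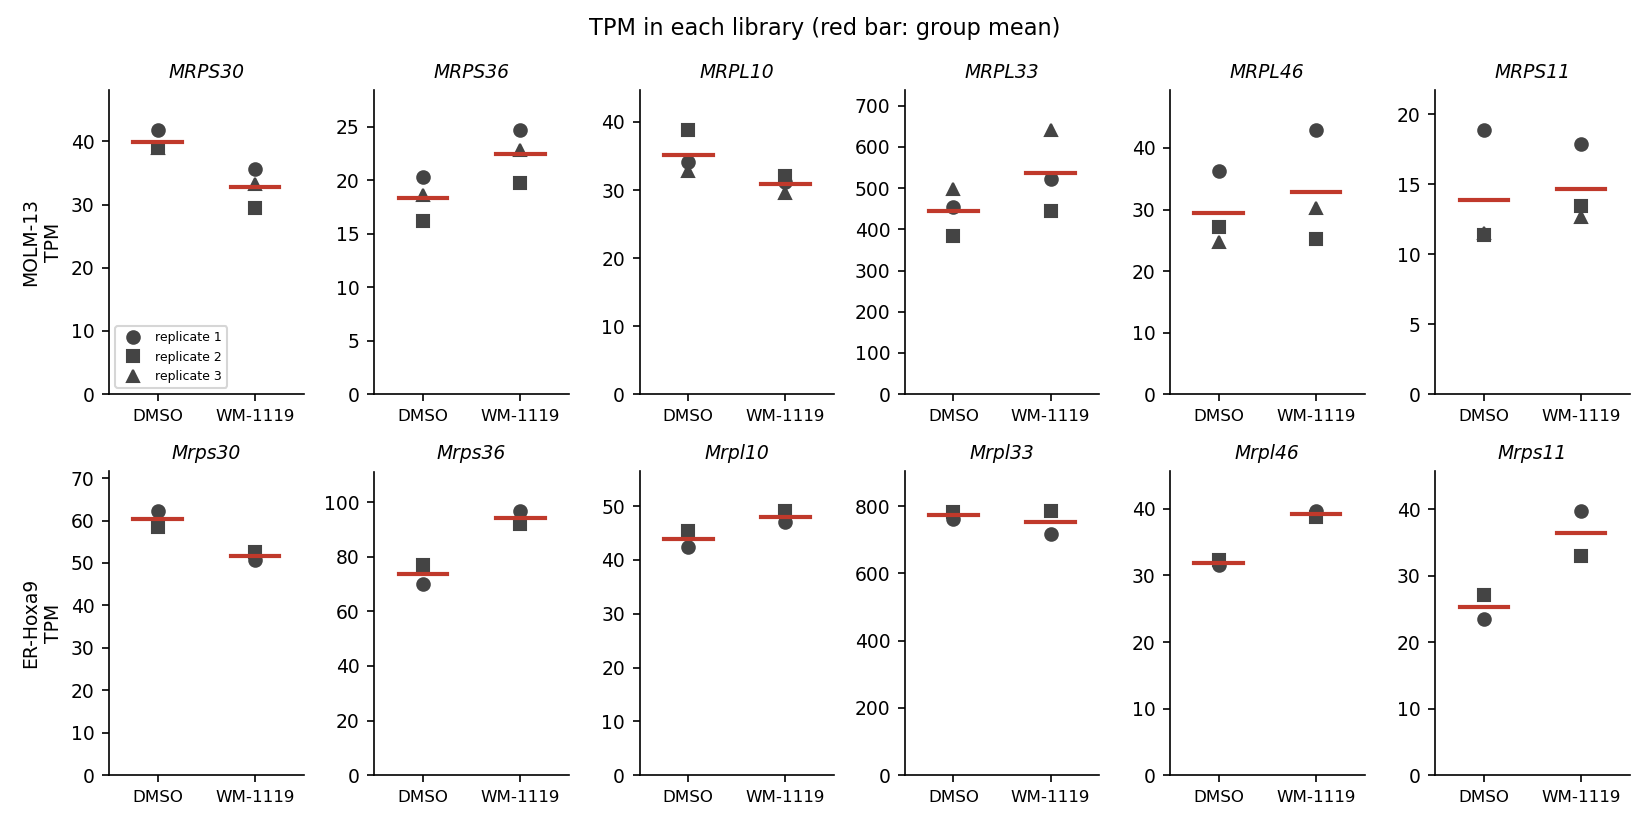
TPM of 6 members in every library of MOLM-13 (top) and ER-Hoxa9 (bottom), by treatment, with the symbol shape giving the replicate number and the red bar the group mean; each axis starts at 0. MRPS30 is lower in all WM-1119 libraries of both lines, and MRPL10 is lower in MOLM-13 and higher in ER-Hoxa9.

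MRPS30 was the only member whose WM-1119 libraries lay below all DMSO libraries in both lines, against 0.344% of the 8726 symbols tested in both, and 0 members lay above in both, against 2.22%. Its protein is specific to mitochondrial ribosomes, without a bacterial counterpart, and its gene lies at chr5:44808925-44820428. MOLM-13 had 41.8, 39.0 and 39.0 TPM with DMSO and 35.6, 29.5 and 33.2 TPM with WM-1119. ER-Hoxa9 had 62.2 and 58.5 TPM with DMSO and 50.8 and 52.6 TPM with WM-1119. The groups did not overlap in either line. The fold change was -0.28 ± 0.16 in MOLM-13 (adjusted p = 0.99999, limma, and 0.186 with the replicate block) and -0.22 ± 0.11 in ER-Hoxa9 (adjusted p = 0.449), so neither passed the test. The ER-Hoxa9 value was -0.36 by the median of ratios.

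MRPS36 had the largest positive fold change of the members in MOLM-13. The gene lies at chr5:69217760-69230129, and its protein links the subunits of 2-oxoglutarate dehydrogenase. Its levels were 20.3, 16.2 and 18.6 TPM with DMSO and 24.7, 19.8 and 22.8 TPM with WM-1119, higher in each of the 3 pairs but with overlapping groups. The fold change was 0.27 ± 0.18 (adjusted p = 0.99999, limma, and 0.173 with the block, the smallest of the members). In ER-Hoxa9 it had 70.1 and 76.9 TPM with DMSO and 96.7 and 91.8 TPM with WM-1119, without overlap, at 0.36 ± 0.11 (adjusted p = 0.340) and at 0.21 by the median of ratios.

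MRPL10 encodes a protein of the stalk of the large subunit, which contacts translation factors. In MOLM-13 it had 34.1, 38.8 and 32.8 TPM with DMSO and 31.2, 32.0 and 29.5 TPM with WM-1119, all lower (-0.18 ± 0.16, adjusted p = 0.99999, limma). In ER-Hoxa9 it had 42.3 and 45.3 TPM with DMSO and 47.1 and 49.1 TPM with WM-1119, all higher (0.13 ± 0.11, adjusted p = 0.624), which turned to -0.01 by the median of ratios. Such opposite sides were found for 1 member, against 0.321% of symbols tested in both lines, and the reverse for 0, against 0.0917%. With MRPS30, MRPL10 made up the 2 members whose MOLM-13 groups did not overlap with WM-1119 lower, against 2.43% of genes tested, and 0 members did so with WM-1119 higher, against 4.54%.

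Other members of small unadjusted p in MOLM-13 had overlapping groups. MRPL1, of the stalk that releases tRNA, had 60.6, 58.3 and 40.4 TPM with DMSO and 49.7, 40.4 and 36.1 TPM with WM-1119, at -0.32 ± 0.23, the largest negative value of the members. MRPL45, which anchors the ribosome to the inner membrane, had -0.24 ± 0.18, and MRPL2, a core protein near the peptidyl transferase centre, had -0.17 ± 0.20. MRPL33 had 0.26 ± 0.20 and MRPL43 had 0.19 ± 0.20 (0.12 by the median of ratios). The adjusted p was 0.99999 for all 5 (limma), and between 0.195 and 0.381 with the replicate block.

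In ER-Hoxa9 the members of smallest unadjusted p had higher values with WM-1119. Mrps21, a small subunit protein, had 253 and 258 TPM with DMSO and 348 and 326 TPM with WM-1119 (0.40 ± 0.10, adjusted p = 0.312, limma). Mrps11, a small subunit protein of the platform, had 23.5 and 27.1 TPM with DMSO and 39.7 and 33.0 TPM with WM-1119 (0.50 ± 0.15, adjusted p = 0.317), the largest fold change of the members. In both genes the groups did not overlap. Mrpl46, whose human counterpart faces MRPS11, had 31.6 and 32.3 TPM with DMSO and 39.7 and 38.8 TPM with WM-1119 (0.29 ± 0.11, adjusted p = 0.375). In MOLM-13 MRPS11 had 18.9, 11.4 and 11.5 TPM and then 17.9, 13.5 and 12.7 TPM, and MRPL46 had 36.3, 27.1 and 24.7 TPM and then 42.9, 25.2 and 30.3 TPM, both overlapping. Without overlap in ER-Hoxa9 were also Mrpl42 (0.35 ± 0.11), Mrps33 (0.33 ± 0.12), Mrpl55 (0.36 ± 0.13) and Mrps18c (0.26 ± 0.11), with adjusted p from 0.337 to 0.398 (limma). By the median of ratios these values were smaller: 0.25 for Mrps21, 0.36 for Mrps11, 0.15 for Mrpl46, 0.20 for Mrpl42, 0.19 for Mrps33, 0.21 for Mrpl55 and 0.12 for Mrps18c.

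The MRPS18 paralogues are 3 related genes whose proteins take different places in the particle. MRPS18C, the form of the small subunit's classical site, had 42.5 ± 4.78 TPM with DMSO and 44.4 ± 9.94 TPM with WM-1119 in MOLM-13 (0.04 ± 0.22). MRPS18B, also of the small subunit, had 104 ± 21.2 and 93.6 ± 20.3 TPM (-0.15 ± 0.24), and MRPS18A, of the large subunit, had 66.9 ± 14.9 and 61.2 ± 11.6 TPM (-0.12 ± 0.25). In ER-Hoxa9, Mrps18c had 222 and 228 TPM with DMSO and 282 and 258 TPM with WM-1119. Mrps18b had 108 and 87.4 TPM and then 89.9 and 73.2 TPM (-0.26 ± 0.16), and Mrps18a had 57.4 and 54.2 TPM and then 61.3 and 52.6 TPM (0.03 ± 0.12), both overlapping. None of the 3 passed the test in either line. By the median of ratios MRPS18A had -0.19 in MOLM-13 and -0.12 in ER-Hoxa9, Mrps18b had -0.40 and MRPS18C had -0.03 in MOLM-13.

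MRPL12 and MRPL58 have roles beside the structure of the particle. MRPL12 carries a stalk protein that is also reported to bind the mitochondrial RNA polymerase. It had 223, 121 and 123.5 TPM with DMSO and 203, 138 and 126 TPM with WM-1119 in MOLM-13 (0.03 ± 0.30), with both replicate 1 libraries high. In ER-Hoxa9, Mrpl12 had 197 and 199.7 TPM with DMSO and 217 and 199 TPM with WM-1119 (0.06 ± 0.11). MRPL58 encodes a peptidyl-tRNA hydrolase that frees stalled ribosomes and is built into the large subunit. Its fold changes were 0.05 ± 0.23 in MOLM-13 and 0.19 ± 0.19 in ER-Hoxa9, with overlapping groups in both. MRPL12 had -0.04 and -0.08 in the 2 lines by the median of ratios, and MRPL58 had -0.02 and 0.05.

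Across the 2 lines, 14 symbols had a negative fold change in both, 36 a positive one in both and 28 opposite signs. Over all genes tested, 61.5% were positive in MOLM-13 and 71.9% in ER-Hoxa9. Spearman's rho between the lines' fold changes was 0.26 over the 78 symbols, given as a description. Members with an ETS match in the promoter window had a median fold change of 0.03 in MOLM-13 (12 negative, 18 positive) and those without it 0.01 (19 negative, 20 positive). For YY1 the medians were -0.03 with a match (14 negative, 10 positive) and 0.03 without (17 negative, 28 positive). For the E-box they were -0.03 with a match (5 negative, 4 positive) and 0.02 without (26 negative, 34 positive). For SP1 they were 0.01 with a match (19 negative, 23 positive) and 0.03 without (12 negative, 15 positive). Neither these splits nor the rho were set beside values over all genes tested. No test was made of these medians.

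Genes that work with the mitochondrial ribosome were also not called. In MOLM-13, 0 of 6 further ribosomal proteins, 0 of 26 assembly factors, 0 of 15 translation factors and 0 of 20 aminoacyl-tRNA synthetases passed in either direction, with medians of -0.09, 0.03, 0.03 and 0.04. In ER-Hoxa9 the counts were 0 of 6, 26, 14 and 20, with medians of 0.15, -0.03, 0.04 and -0.01. By the median of ratios those medians became -0.16, -0.04, -0.04 and -0.03 in MOLM-13 and 0.00, -0.18, -0.10 and -0.14 in ER-Hoxa9. GADD45GIP1, a large subunit protein and the most abundant of its list in MOLM-13, had 195 ± 48.3 TPM with DMSO and 182 ± 35.3 TPM with WM-1119. SLIRP, which stabilizes mitochondrial messenger RNA, had 235 ± 57.4 and 249.8 ± 44.7 TPM (n = 3).

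The clients and the relatives of the mitochondrial ribosome were described by the same fits. Of 47 nuclear-encoded respiratory chain genes, whose proteins assemble with those made by mitochondrial ribosomes, 0 were called, and 41 had a positive fold change in MOLM-13 and 45 in ER-Hoxa9, where 61.5% and 71.9% of all genes did. Their medians were 0.12 and 0.18, and 0.05 and 0.03 by the median of ratios. COX7C, a subunit of cytochrome c oxidase and the most abundant in MOLM-13, had 1502 ± 391 TPM with DMSO and 1627 ± 473 TPM with WM-1119. Of cytosolic ribosomal protein genes, which build the ribosome of the cytosol, 74 of 83 had a negative fold change in MOLM-13 and 77 of 81 in ER-Hoxa9. Among all genes tested 38.5% and 28.1% did. The medians of the cytosolic ribosomal protein genes were -0.13 and -0.17, and 0 were called. Those medians were -0.20 and -0.32 by the median of ratios. None of the 25 transcription and RNA processing genes, 26 protein import genes or 11 regulators of mitochondrial biogenesis was called in MOLM-13, nor of the 23, 25 and 11 tested in ER-Hoxa9. The 11 regulators had a median of 0.06 in MOLM-13 (4 negative, 7 positive) and -0.03 in ER-Hoxa9 (6 negative, 5 positive). By the median of ratios these medians were 0.002 and -0.16. MYC, a transcription factor known to activate genes of ribosomes and mitochondria, was the most abundant of those regulators. It had 157, 127 and 169.97 TPM with DMSO and 136, 78.2 and 113 TPM with WM-1119 in MOLM-13, which overlapped (-0.50 ± 0.25, adjusted p = 0.99999, limma). In ER-Hoxa9, Myc had 317 and 302 TPM with DMSO and 225 and 247 TPM with WM-1119, without overlap (-0.39 ± 0.11, adjusted p = 0.313).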

How the data were processed

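RNA was sequenced from 10 libraries, and the authors deposited 1 table of TPM per line, listed by gene symbol. The TPM were estimated with Salmon, with hg38 and mm10 named as builds, per the submitters' processing notes. The sources used here do not give versions, gene annotation or strand setting. TPM keep no depth, so no counting error is given. The mouse columns carry a line name other than ER-Hoxa9 and were assigned as the only mouse line.

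Genes averaging 1 TPM or more in a line were kept. Their log2(TPM + 1) was modelled per line in limma 3.58.1 (R 4.3.3; trended eBayes, two-sided), with p-values adjusted by Benjamini-Hochberg over all genes tested. The main fit was tested on simulated data, with 50 of the more abundant genes changed at each size. Noise was drawn for each library on its own, without a part shared by same-numbered libraries. The fit with the replicate block was not tested in this way. In MOLM-13 the main fit recovered 4% of the changed genes at a log2 change of 0.5, 24% at 1 and 92% at 2. In ER-Hoxa9 it recovered 6%, 74% and 100%. Genes left unchanged were called 9 times in MOLM-13 and 18 times in ER-Hoxa9. Changes of 0.5 were thus seldom called, so a count of 0 members does not show that none changed. The labels do not say whether replicates were separate cultures, and the spread that p-values rest on, between these libraries, may be technical. Deviations of same-numbered MOLM-13 libraries correlated across genes at 0.52, 0.44 and 0.61 (others -0.42 to -0.10). The numbers were taken to pair them in the alternative with the replicate block only. The main fit did not use the numbers.

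The members, gene lists and alternatives were chosen with earlier results of these data known. Lists were described by counts and medians, without a test of a list. Genes named in each line were those of smallest unadjusted p up to 8, the 3 highest and 3 lowest DMSO means, members on opposite sides in the lines and 7 fixed members, plus abundant members of other lists, of which a part is printed. Members compared between lines, with face-to-face starts or without overlap of groups were named after their values were seen. Promoters came from RefSeq (GRCh38.p14) and gene models from GENCODE release 29. Mouse sequences and proteins were not used here. Figures were drawn with matplotlib 3.10.9.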

Additional observations from a re-analysis of the deposited data

Results flagged for a closer look

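MRPL10 lay on opposite sides in the 2 lines: every WM-1119 library was below every DMSO library in MOLM-13, with a log2 fold change of -0.18, and above in ER-Hoxa9, with 0.13. The difference between the lines was not tested, since they stand in separate tables. The value of ER-Hoxa9 was -0.01 after scaling by the median of ratios.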

How the results depend on the processing

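No member was called in either line under any alternative run: another pseudocount (0.1), no filter, other scalings, removal of microRNA or also cytosolic ribosomal protein genes, robust variances, the replicate block and leaving out each library. In MOLM-13 the subunit medians and sums moved by less than the spread between replicates under the alternatives run. For the sums that spread was wide, with an SD of 701 TPM for the large and 412 TPM for the small subunit with DMSO. Both differences of the MOLM-13 sums were positive without DMSO library 1 and negative without WM-1119 library 1. Counts below the adjusted test did move. Members at an unadjusted p under 0.05 went from 0 lower and 0 higher to 4 and 6 with the replicate block. Negative members went from 34 to 52 by the median of ratios, and negative genes among all tested from 4788 to 6532. In ER-Hoxa9 the large subunit median of 0.12 became -0.026 by the median of ratios, 0.031 without microRNA and cytosolic ribosomal protein genes and 0.0035 by quantiles, and 0.041 to 0.17 with 1 library left out (lowest without WM-1119 library 1, highest without DMSO library 2). The small subunit median of 0.12 became -0.029, 0.028 and 0.0054, and 0.044 to 0.23 with 1 library left out (lowest without WM-1119 library 1, highest without WM-1119 library 2; 0.067 without DMSO library 1). The difference of the summed TPM became -270.5 for the large and -11.4 for the small subunit by the median of ratios. The cause was not tested. The replicate block left the fold changes as they were (0.12 for both subunit medians of ER-Hoxa9) and called 0 members. In ER-Hoxa9 the labels do not say what same-numbered libraries share either. Their deviations correlated at 0.21 and those of differently numbered libraries at -0.21, a mirror image that 2 libraries per group force. There the block moved the members at an unadjusted p under 0.05 from 7 to 10 higher and from 0 to 1 lower.

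Small fold changes changed sign. By the median of ratios, ER-Hoxa9 had -0.012 for MRPL10, -0.081 for MRPL12, -0.0062 for MRPL17 and -0.12 for MRPS18A. MOLM-13 had -0.043 for MRPL12, -0.016 for MRPL23, -0.0048 for MRPL51, -0.020 for MRPL58 and -0.026 for MRPS18C, with or without the replicate block. Without microRNA and cytosolic ribosomal protein genes, ER-Hoxa9 had -0.024 for MRPL12 and -0.061 for MRPS18A, and MOLM-13 had -0.069 for MRPL12, -0.042 for MRPL23, -0.030 for MRPL51, -0.046 for MRPL58 and -0.052 for MRPS18C. By quantiles, ER-Hoxa9 had -0.070 for MRPL12, -0.046 for MRPL17 and -0.084 for MRPS18A, and MOLM-13 had -0.070 for MRPL12, -0.026 for MRPL23, -0.018 for MRPL58 and -0.025 for MRPS18C. With the block in MOLM-13, MRPL19 had 0.0051 and MRPL58 -0.033 without pair 1, MRPL12 had -0.049 without pair 2, and MRPL51 had -0.0017 and MRPS18C -0.093 without pair 3. With 1 library left out, ER-Hoxa9 ranged from -0.11 to 0.023 for MRPL33, -0.013 to 0.37 for MRPL35, -0.19 to 0.048 for MRPL52, -0.0069 to 0.39 for MRPL58 and -0.082 to 0.14 for MRPS18A. MOLM-13 ranged from -0.18 to 0.31 for MRPL12, -0.25 to 0.20 for MRPL19, -0.18 to 0.040 for MRPL22, -0.042 to 0.18 for MRPL51, -0.13 to 0.21 for MRPL58, -0.047 to 0.32 for MRPS11, -0.32 to 0.043 for MRPS18A, -0.32 to 0.00050 for MRPS18B and -0.089 to 0.23 for MRPS18C. MRPS30 stayed negative in both lines and MRPS36 positive under every alternative run.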
